A study of Homo sapiens with 6 samples.

Results

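The LXR and SREBF1 lipid gene set held 10 genes: ABCA1, ABCG1, NR1H2, NR1H3, MYLIP, SREBF1, SCD, FASN, ACACA and LPCAT3. The members were taken by symbol from the table of normalized counts, and all 10 were found among its 30267 genes. The set was chosen by a rule that used these libraries, since ABCA1 had been seen to be higher in the same comparison. ABCA1 is therefore described without a test, and counts over the set are descriptions. The adjusted p-values of the other 9 members came from 1 limma fit over all 16554 tested genes, and all 10 members passed its filter on low values.

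The libraries were bulk RNA-seq of SW839, an established line of renal cell carcinoma (RCC) cells. They comprised 3 libraries labelled shRNF25, from cells carrying a short hairpin RNA against RNF25, a ubiquitin ligase, and 3 labelled shControl, whose library names refer to the pLKO hairpin vector. The treatment text of every library, shControl included, names the shRNF25 plasmid, so the groups were taken from the titles and the genotype labels. The shRNF25 library names carry a single hairpin name, and the study's methods describe lentiviral infection followed by puromycin selection. The 3 shRNF25 library names share 1 form and those of the shControl libraries differ in form, so a batch, if there was one, and the hairpin cannot be told apart. Nothing in the labels beyond "biological triplicates" says how the cultures of a group were separated, and p-values measure only the spread between these libraries.

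Liver X receptors (LXRα, encoded by NR1H3, and LXRβ, encoded by NR1H2) are nuclear receptors that bind oxysterols and pair with retinoid X receptors on DNA. They turn on genes that carry cholesterol out of the cell (ABCA1, ABCG1), mark lipoprotein receptors for degradation (MYLIP) and remodel membrane phospholipids (LPCAT3), and they raise SREBF1, whose protein drives fatty acid synthesis through ACACA, FASN and SCD. Clear cell renal carcinoma is known for cells filled with cholesteryl ester and neutral lipid.

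Between 18647460 and 19943154 reads per library were assigned to genes. RNF25 lay at 694, 534 and 536 normalized counts in shControl 1, 2 and 3 and at 214, 246 and 265 in shRNF25 1, 2 and 3. The shRNF25 mean was 41.1% of the shControl mean, a log2 fold change of -1.27 (SE 0.150, limma adjusted p = 0.000585); an exact two-sided permutation test of the 6 values gave p = 0.1, the smallest that 3 against 3 allows. The shControl libraries were more spread than the shRNF25 libraries, with a median within-group SD of 0.260 against 0.0959 on the log2 scale. Of the cell markers checked, KRT18 and EPCAM were high in every library, VIM was higher in shRNF25 (448, 416 and 203 in shControl against 804, 882 and 810.2, limma adjusted p = 0.00805), KRT19 was lower (log2 fold change -0.47, limma adjusted p = 0.0278), CA9 was at 50.7 normalized counts or less, NDUFA4L2 at 33.5 or less, and PAX8 lay between 76.7 and 140.3. The summed level of 10 markers of blood, endothelial and liver cells was 485 to 696 in shControl and 441 to 586 in shRNF25, and CD3E, ALB and APOA2 had 3 reads or fewer everywhere. Within that list the endothelial gene CDH5 fell, from 73.0, 103 and 199 to 3.64, 8.31 and 5.72 (limma adjusted p = 0.000213), while PECAM1, another endothelial gene, lay at 349.9 to 549 in all libraries; their part in the results on lipid genes was not tested.

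Of the 10 members, 9 had a log2 fold change above 0, and the median was 0.42, against -0.01 over all tested genes. Without ABCA1 the median of the other 9 members was 0.41. Of the 9 members other than ABCA1, 1 (MYLIP) was higher in shRNF25 by at least 1.5-fold with an adjusted p below 0.05, and 0 were lower, where 8.65% of all tested genes were higher and 7.1% lower by these criteria. By adjusted p alone 3 of the 9 were higher (MYLIP, SCD and ACACA), against 10.5% of all tested genes higher and 10.8% lower. In 5 of the 9 every shRNF25 library lay above every shControl library, as in 20.7% of all tested genes, while 21.8% of tested genes were separated the other way. ABCA1 was left out of these counts because its rise chose the set. Where a count over all 10 members is given (2 past both criteria), it includes ABCA1 by that choice. Because the members were chosen with this comparison known, nothing is read from these shares. No member was called lower by limma, edgeR or DESeq2, and 0 members were lower at an unadjusted limma p below 0.05. In bulk RNA, more transcript per cell and more cells with the transcript cannot be told apart. Without shRNF25 replicate 1 or shRNF25 replicate 2, MYLIP no longer passed both criteria (limma adjusted p = 0.0775 and 0.0553). Without shControl replicate 3, SREBF1 passed them as well (log2 fold change 0.62, limma adjusted p = 0.0122).

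**Figure D1:**
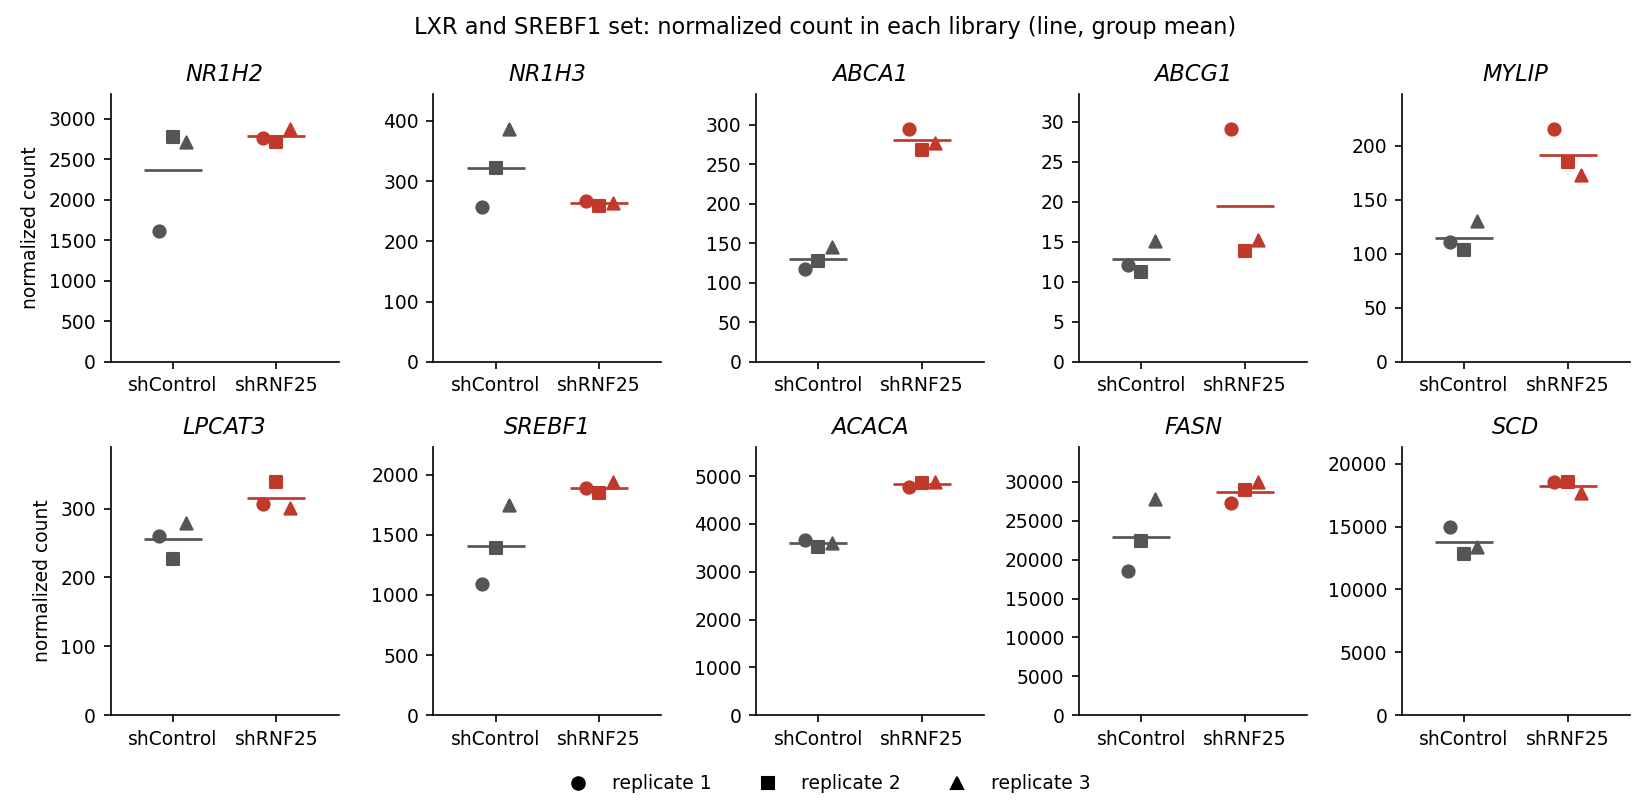
Normalized count (y axis, linear from 0, a separate scale in each panel) of the 10 genes in the 3 shControl and 3 shRNF25 libraries; symbols mark the replicate and horizontal lines the group means. ABCA1 is separated most widely, at 117 to 146 against 268 to 295, while NR1H2, NR1H3, ABCG1 and FASN have overlapping groups.

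The receptors themselves were described first. NR1H2 (chr19:50329653-50382982, plus strand, GRCh38) encodes LXRβ, the broadly expressed receptor. It measured 1618, 2774 and 2714 normalized counts in the shControl libraries and 2769, 2710.5 and 2881 in the shRNF25 libraries. Only shControl 1 was low; the other 5 libraries lay close together and the groups overlapped. The log2 fold change of 0.28 (95% interval -0.16 to 0.71) did not pass the test (limma adjusted p = 0.337), and without shControl replicate 1 it was 0.02.

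NR1H3 (chr11:47248300-47269032, plus strand) encodes LXRα, the receptor that is most prominent in liver, fat and macrophages. Its values were 258, 321 and 387 in shControl and 268, 259.5 and 264 in shRNF25. The shRNF25 libraries were nearly equal and sat at the lower end of the shControl range, with which they overlapped. NR1H3 was the 1 member with a negative log2 fold change, -0.27 (95% interval -0.63 to 0.09, limma adjusted p = 0.267). Without shControl replicate 1, the lowest control, the difference was -0.42 and passed (adjusted p = 0.0182).

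Per kilobase of exon, NR1H2 was the more abundant receptor transcript in every library. The ratio of NR1H2 to NR1H3 per kilobase was 7.59, 10.4 and 8.46 in shControl and 12.5, 12.6 and 13.2 in shRNF25. The ratio was above every control value in all 3 shRNF25 libraries; it was computed after the separate values had been seen and was not tested.

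ABCA1 (chr9:104781002-104928237, minus strand) encodes the transporter that loads cholesterol and phospholipid onto apolipoprotein A-I, the first step of HDL formation. It measured 117, 127 and 146 normalized counts in shControl and 295, 268 and 277 in shRNF25. All shRNF25 libraries were high, the lowest of them well above the highest control, with no overlap. The shRNF25 mean of 280.1 ± 13.9 (SD, n = 3) was 2.15-fold the shControl mean of 130.0 ± 14.5, and the log2 fold change was 1.11. Over the 17 alternative ways of processing it lay between 1.03 and 1.19. These are descriptions of the libraries in which the rise was first seen.

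The RefSeq promoter windows (GRCh38.p14, 250 bases before the annotated start) held entries for 8 of the 10 members. ABCG1 and FASN had no window, so their promoters were not searched. LXR binds direct repeats of AGGTCA spaced by any 4 bases (DR4), which were searched on both strands with up to 2 mismatches among the 12 bases of the repeats. ABCA1's window was the only member window with such a match, against 2.03% of 35116 windows in the whole RefSeq table. That match lies before the RefSeq start but inside the GENCODE span of ABCA1, which reaches further upstream, to chr9:104928237. It is shown because ABCA1 was the member with the widest separation; the capitals mark the 16 matched bases, which read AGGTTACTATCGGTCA on the opposite strand, 69 to 54 bases before the start.
ABCA1 DR4 match, chr9:104928202-104928231, minus strand: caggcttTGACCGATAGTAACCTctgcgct

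The same window held the E-box CACGTG, a palindrome found in 6.34% of windows. It is shown in capitals in the stretch from 250 to 83 bases before the start, which lies upstream of every annotated exon. A match is a string of letters in the reference sequence, and no binding was measured here.
ABCA1 upstream, chr9:104928238-104928405, minus strand: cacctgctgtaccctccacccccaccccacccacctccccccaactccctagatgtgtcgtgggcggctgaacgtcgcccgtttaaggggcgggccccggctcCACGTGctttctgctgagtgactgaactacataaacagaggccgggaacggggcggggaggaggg

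ABCA1 is also the textbook target of miR-33, a microRNA family whose genes lie inside SREBF1 (miR-33b) and SREBF2 (miR-33a). The mature sequences are printed with the seed, bases 2 to 8, in capitals, since both share that seed.
hsa-miR-33a-5p: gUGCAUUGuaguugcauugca
hsa-miR-33b-5p: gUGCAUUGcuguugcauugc

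The DNA match to the seed, CAATGCA, occurred 4 times in the 3′ UTR of the longest coding ABCA1 transcript (3313 bases) and in the 3′ UTR of none of the other 9 members. Of 19046 genes with such a 3′ UTR, 8.34% held at least 1 match. The matches of ABCA1 are shown in capitals, and levels of the microRNAs were not analysed here.
ABCA1 3′ UTR, chr9:104784155-104784184, minus strand: tattCAATGCAATGCAattCAATGCAatga
ABCA1 3′ UTR, chr9:104782822-104782851, minus strand: tttaattgcaaCAATGCAaaagccaagaaa

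ABCG1 (chr21:42199689-42297244, plus strand) encodes the transporter that passes cholesterol to mature HDL particles, and was the least abundant member. It measured 12.2, 11.3 and 15.1 normalized counts in shControl and 29.2, 13.9 and 15.3 in shRNF25, from 11 to 32 reads per library. One library, shRNF25 1, was high, and the other shRNF25 libraries lay within or next to the control range. The log2 fold change was 0.49 with a wide interval (-0.27 to 1.26, limma adjusted p = 0.332), and without shRNF25 replicate 1 it was 0.18. At this depth a change of ABCG1 like that of ABCA1 lay inside the interval.

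MYLIP (chr6:16129125-16148248, plus strand), also named IDOL, encodes a ubiquitin ligase that sends lipoprotein receptors to the lysosome. It measured 111, 104 and 131 normalized counts in shControl and 216, 185 and 173 in shRNF25. Each shRNF25 library was above each control, and shRNF25 1 was the highest. MYLIP rose 1.66-fold (log2 fold change 0.73, SE 0.160, 95% interval 0.37 to 1.09, limma adjusted p = 0.0122). The size changed little when a library was left out, 0.64 without shRNF25 replicate 1 and 0.75 without shRNF25 replicate 2, but the adjusted p then came to 0.0775 and 0.0553.

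The MYLIP promoter had no DR4 match within these letters. It is shown because MYLIP had the largest called difference of the members other than ABCA1. The capitals mark 2 ATTGG words, which read CCAAT, the NF-Y box, on the opposite strand. CCAAT was found on either strand in 32% of windows.
MYLIP upstream, chr6:16128836-16129085, plus strand: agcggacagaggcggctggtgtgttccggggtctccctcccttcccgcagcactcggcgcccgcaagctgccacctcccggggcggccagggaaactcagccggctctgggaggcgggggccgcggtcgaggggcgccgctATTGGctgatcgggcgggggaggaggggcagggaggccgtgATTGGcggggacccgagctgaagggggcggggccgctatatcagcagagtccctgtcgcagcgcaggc

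Of the receptors that MYLIP marks for degradation, LRP8 binds apolipoprotein E and reelin, and VLDLR binds triglyceride-rich particles. LRP8 lay at 2344, 2309 and 2470.5 normalized counts in shControl and at 1978, 1966 and 2066 in shRNF25 (log2 fold change -0.24, limma adjusted p = 0.1), with no overlap. LRP8 did not pass the test, and VLDLR, at 4.42 to 22.7, was too low to be tested. Protein, on which MYLIP acts, was not measured.

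LPCAT3 (chr12:6976186-7018510, minus strand) encodes the acyltransferase that places polyunsaturated fatty acids into phosphatidylcholine. It measured 261, 227 and 278 in shControl and 306, 339 and 300.3 in shRNF25. The groups did not overlap, but shControl 3 and shRNF25 3 lay near each other. The log2 fold change of 0.31 (SE 0.134) did not pass (limma adjusted p = 0.137). Of the annotated exon bases of LPCAT3, 65.6% (3100 bases) lie opposite exons of EMG1, a ribosome biogenesis gene, and although the study's methods describe a stranded library kit, the strand setting of the counting is not given in the sources used here. EMG1 itself lay at 397 to 702 with overlapping groups (-0.31, limma adjusted p = 0.275).

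SREBF1 (chr17:17810399-17837002, minus strand) encodes the SREBP1 precursor, which is cut in the Golgi to free a transcription factor for fatty acid genes. It measured 1090.0, 1390.3 and 1748 normalized counts in shControl and 1893, 1844 and 1941 in shRNF25. The shRNF25 libraries lay close together above a control group that spread widely, and the groups did not overlap. The means were 1409.6 ± 329.7 and 1892 ± 48.2 (SD, n = 3 each), a ratio of 1.34 and a log2 fold change of 0.45 (SE 0.160, 95% interval 0.09 to 0.81) that missed the threshold (limma adjusted p = 0.0756). It depended on the libraries kept. Without shControl replicate 3, the highest, it was 0.62 (adjusted p = 0.0122), and without shControl replicate 1, the lowest, it was 0.28 (adjusted p = 0.0543). Without shControl replicate 2 the adjusted p was 0.142, and without any 1 of the shRNF25 libraries it was 0.176 to 0.216. With library weights by group the log2 fold change was 0.45 (adjusted p = 0.0287). SREBF1 passed adjusted p below 0.05 in 4 of the 17 alternatives. SREBF2, its paralog for cholesterol genes, had almost equal group means of 4441 ± 464 and 4439 ± 37.3 and a log2 fold change of 0.00 (95% interval -0.24 to 0.25, limma adjusted p = 0.983).

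The enzymes downstream of SREBF1 follow in the order of the pathway. ACACA (chr17:37084988-37406818, minus strand) encodes acetyl-CoA carboxylase 1, which makes malonyl-CoA, the committed step. It measured 3668, 3517 and 3597 in shControl and 4766, 4856 and 4882 in shRNF25. Both groups were tight, with an SD of 2.10% and 1.26% of the mean, and did not overlap. ACACA rose 1.35-fold (log2 fold change 0.43, SE 0.0922, 95% interval 0.22 to 0.64, limma adjusted p = 0.0110), under the fold criterion. Leaving out any 1 of the shRNF25 libraries kept the size between 0.42 and 0.44 and gave adjusted p-values of 0.0620 to 0.0770.

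FASN (chr17:82078333-82098332, minus strand) encodes fatty acid synthase, which builds palmitate. It measured 18483, 22422 and 27755 in shControl and 27265, 28955 and 30012 in shRNF25. The highest control, shControl 3, was above shRNF25 1, so the groups overlapped. The log2 fold change was 0.35 (SE 0.152, limma adjusted p = 0.136); without shControl replicate 3 it was 0.50 (adjusted p = 0.0236) and without shControl replicate 1 it was 0.20 (adjusted p = 0.199).

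SCD (chr10:100347124-100364834, plus strand) encodes stearoyl-CoA desaturase, which places the double bond that turns stearate into oleate. It measured 14999, 12853 and 13362 in shControl and 18558, 18503 and 17689 in shRNF25. Every shRNF25 library was above every control. SCD rose 1.33-fold (log2 fold change 0.41, SE 0.107, 95% interval 0.17 to 0.65, limma adjusted p = 0.0241), under the fold criterion. Without shControl replicate 2 the adjusted p was 0.0558, and without shRNF25 replicate 1, 2 or 3 it was 0.112, 0.116 and 0.0971. Of the 50-base words in the SCD transcripts, 4.42% are shared with its pseudogene SCDP1 and neighbouring entries, so a small share of its reads cannot be placed with certainty.

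The SCD promoter is shown as that of the most abundant member per kilobase; the capitals mark 2 CCAAT words, on the printed strand here and on the opposite strand in MYLIP. The sterol regulatory element was searched as TCACNCCAC on both strands. It was found in none of the windows of the 8 members and in 0.883% of all windows. FASN and ABCG1, without a window, were not searched.
SCD upstream, chr10:100346983-100347123, plus strand: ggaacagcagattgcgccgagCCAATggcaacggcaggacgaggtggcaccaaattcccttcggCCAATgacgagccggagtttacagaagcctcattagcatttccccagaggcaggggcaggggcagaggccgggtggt

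Together FASN, SCD and ACACA took 0.169%, 0.191% and 0.222% of the gene reads in shControl 1, 2 and 3 and 0.286%, 0.287% and 0.290% in shRNF25 1, 2 and 3. The share was higher in each shRNF25 library than in any control. It is a share of raw reads, a scale on which the shRNF25 group lies higher by 0.16 (log2) over the median of all tested genes.

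**Figure D2:**
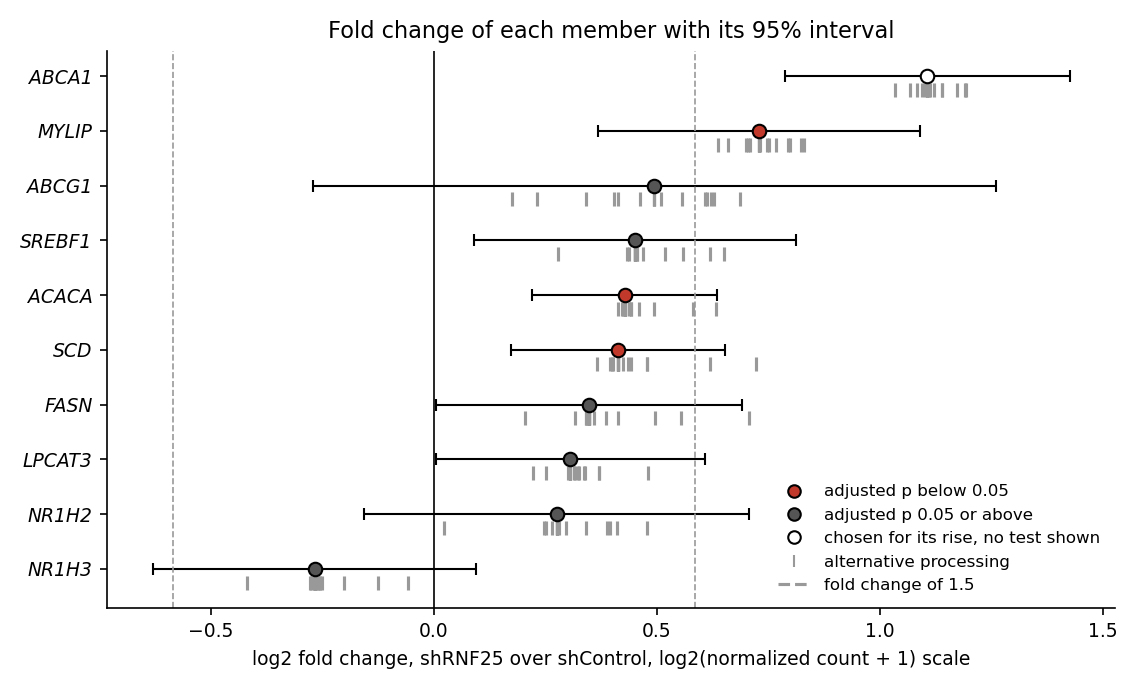
Log2 fold change of shRNF25 over shControl (x axis, log2(normalized count + 1) scale) for each of the 10 genes, with 95% intervals as bars and the alternative ways of processing as grey ticks (17, or 16 for ABCG1, which the stricter filter left out); filled red points have a limma adjusted p below 0.05 and the open point is ABCA1, which has no test. NR1H3 is the one point left of 0, and the dashed lines mark a fold change of 1.5. The bar of ABCA1 is not to be read as a test, since its rise chose the set.

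The controls differed among themselves in the same genes. The highest shControl value belonged to shControl 3 in 7 of the 10 members, and the lowest to shControl 1 in 5 and shControl 2 in 5. The SD of the 3 controls was 23.4% of the mean in SREBF1 and 20.3% in FASN, but 2.10% in ACACA.

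Per kilobase of exon, the members covered a wide range of levels. The order of the shControl means was SCD at 2562 normalized counts per kilobase, FASN at 2444, NR1H2 at 631, ACACA at 276, SREBF1 at 176, NR1H3 at 71.0, LPCAT3 at 54.0, MYLIP at 37.9, ABCA1 at 11.5 and ABCG1 at 2.10. The enzymes of fatty acid synthesis and LXRβ were at the top and the transporters at the bottom. Over the 6 libraries the ranges of neighbours overlapped for SCD and FASN, for NR1H3 and LPCAT3, and for LPCAT3 and MYLIP. All other neighbours were separated.

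**Figure D3:**
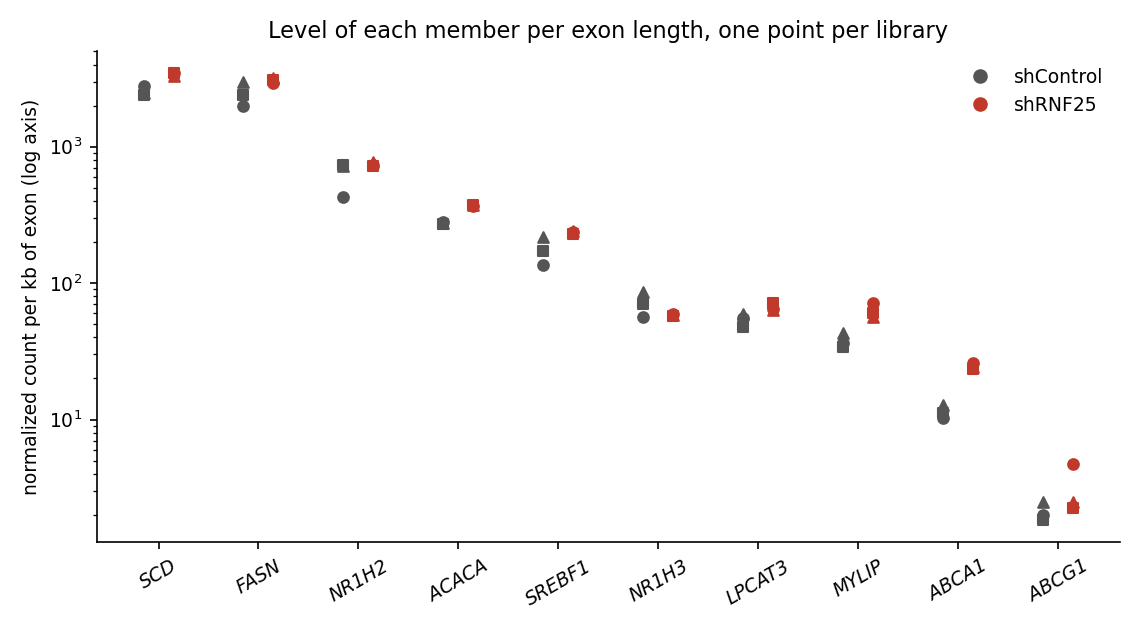
Normalized count per kilobase of annotated exon (y axis, log scale) of each of the 10 genes in 6 libraries, grey for shControl and red for shRNF25, in order of the shControl mean. SCD and FASN lie highest, at shControl means of 2562 and 2444, and ABCG1 lowest, at 2.10.

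The 3 tested genes whose levels were most like those of ABCA1 over the 6 libraries were H3C10 (a histone H3 gene), PAPSS2 (which makes the sulfate donor PAPS) and FGB (the fibrinogen beta chain), each with Pearson r = 0.999 on the log2 scale. This is a description of 2 groups of 3 libraries, and 1568 tested genes had r of at least 0.9. FGB was at a low level, with 3, 4 and 5 reads in shControl and 42, 32 and 31 in shRNF25. Among the members, r with ABCA1 was 0.972 for ACACA, 0.968 for MYLIP, 0.902 for SCD, 0.847 for SREBF1, 0.837 for LPCAT3, 0.797 for FASN, 0.667 for ABCG1, 0.577 for NR1H2 and -0.48 for NR1H3.

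The other genes of these pathways were taken from 10 lists with 124 genes, of which 105 were tested. Past both criteria, 12 were higher and 6 lower in shRNF25, beside 8.65% and 7.1% of all tested genes, and the median log2 fold change was 0.10. The split depended on the scaling: it was 15 and 4 after quantile normalization and 18 and 2 on reads scaled by the library total. Scaling by the library total also moved the median log2 fold change of all tested genes, from -0.01 to 0.16. Without shRNF25 replicate 2 the count of higher genes was 7. The limma shares of 8.65% higher and 7.1% lower also stand beside the counts of each list below.

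LXR's partners and coregulators (14 tested) had a median of -0.01, with CREBBP, a histone acetyltransferase that acts as a coactivator, the 1 gene past both criteria (0.66, limma adjusted p = 0.0156). TBL1XR1, in the same list, was lower by adjusted p alone (-0.48, limma adjusted p = 0.0233). Among the oxysterol enzymes (6 tested) CYP7B1, which hydroxylates oxysterols and so clears LXR ligands, rose from 7.74, 16.4 and 15.1 to 21.0, 32.3 and 31.5 normalized counts (1.09, limma adjusted p = 0.0495), at a low level; edgeR called it as well and DESeq2 did not. The other LXR targets moved both ways, with 2 higher and 2 lower of 7 tested and 6 of the 13 in the table too low to test. MLXIPL, the glucose-sensing factor ChREBP, rose from 98.4, 130.3 and 123.0 to 192, 209.6 and 193 (0.76, limma adjusted p = 0.00890), and SMPDL3A, a phosphodiesterase, rose by 0.80 (limma adjusted p = 0.0215). PLTP, the phospholipid transfer protein, went the other way, from 1576, 2347 and 2499.6 to 1267, 1271 and 1352 (-0.70, limma adjusted p = 0.0178).

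Among the other ABCA and ABCG transporters (9 tested, median 0.21) ABCA13 alone passed both criteria. It rose from 224, 198 and 141 to 416, 366 and 385 normalized counts (1.07, limma adjusted p = 0.00342). Sterol transport and storage (7 tested, median -0.02) had 1 gene in each direction: LIPA, the lysosomal lipase that frees cholesterol from its esters, at 0.65 (limma adjusted p = 0.00295), and SCARB1, the HDL receptor, at -0.68 (limma adjusted p = 0.00837).

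Of the SREBP processing genes (10 tested, median -0.07) none passed both criteria by limma, edgeR or DESeq2, with 0 higher and 1 lower at an unadjusted p below 0.05. RNF145, a ligase that acts on SCAP, was lower by adjusted p alone (-0.41, limma adjusted p = 0.0295). Fatty acid synthesis and desaturation (19 tested, median 0.15) had 2 genes higher and 3 lower. FADS2, the delta-6 desaturase, rose from 11729, 10648 and 12281 to 19836, 19753 and 19166 (0.76, limma adjusted p = 0.00128), and ACSS2, which makes acetyl-CoA from acetate, rose by 0.62 (limma adjusted p = 0.00649). FADS3, a relative of FADS2, fell from 2057, 2506 and 2684 to 1195, 1189 and 987 (-1.10, limma adjusted p = 0.000721). OLAH, a thioesterase that releases medium-chain fatty acids, went from 18, 14 and 11 reads to 3, 1 and 2 (limma adjusted p = 0.00315), too few for a fold change to be given. Of the lysophospholipid acyltransferases related to LPCAT3 (11 tested, median -0.21) 0 were past both criteria by limma, edgeR or DESeq2, and 2 were lower at an unadjusted p below 0.05. AGPAT4 was lower by adjusted p alone (-0.55, limma adjusted p = 0.0267).

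Cholesterol synthesis, the branch driven by SREBF2, had the highest median of the 10 lists, 0.45 over 20 tested genes. Past both criteria 4 were higher and 0 lower by limma, beside 8.65% and 7.1% of all tested genes. The counts were 5 and 0 by edgeR and by DESeq2. Of all tested genes, 3525 by limma, 3526 by edgeR and 3875 by DESeq2 had an adjusted p below 0.05 in either direction. By adjusted p alone 7 were higher, beside 10.5% of all tested genes. At an unadjusted p below 0.05 there were 11 higher and 1 lower, and 5853 of the 16554 tested genes reached that level in either direction. They included MVK, mevalonate kinase (0.85, limma adjusted p = 0.00360), DHCR7, which makes cholesterol from its last precursor in one branch (0.74, limma adjusted p = 0.00357), and LSS, lanosterol synthase (0.65, limma adjusted p = 0.0132). Cleavage of the SREBP proteins was not measured.

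**Figure D4:**
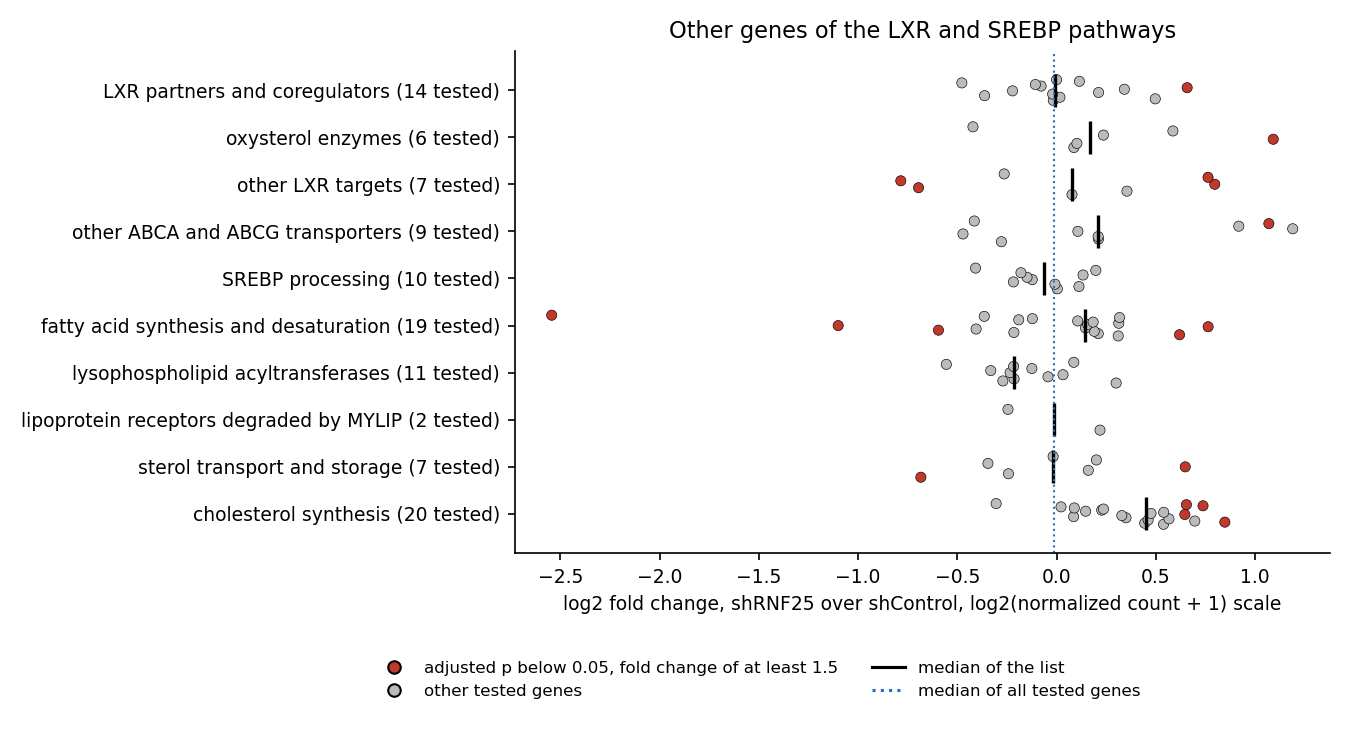
Log2 fold change of shRNF25 over shControl (x axis, log2(normalized count + 1) scale) for each tested gene of the 10 lists of other LXR and SREBP pathway genes; red points are past both criteria, black bars are list medians and the dotted line is the median of all tested genes. Cholesterol synthesis has the highest median, 0.45, while the other LXR targets spread to both sides of 0.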

How the data were processed

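SW839 RNA was sequenced in 6 libraries, 3 per group. Per the labels the reads were processed with fastp, HISAT2 and HTSeq on GRCh38; the annotation and strand setting are not given in the sources used here. The authors deposited normalized counts, a signal equal to gene counts divided by 1 size factor per library (0.905 to 1.10). Whole reads were recovered for 100% of values (tolerance 0.01 reads), giving 18647460 to 19943154 reads per library, the depth that limits low genes. The 16554 genes that reached 10 in 3 or more libraries were tested with limma 3.58.1 in R 4.3.3 (lmFit, eBayes with trend) on log2(normalized count + 1), a scale that understates changes of low genes, with Benjamini-Hochberg adjustment. The criteria (fold change of 1.5 or more, adjusted p below 0.05) follow the study's methods. The members and lists were chosen with earlier results of these data known. Named were all members, RNF25, in each list the genes past both criteria (at most the 4 with the largest change), VLDLR, LRP8, SREBF2 and the 3 genes most correlated with ABCA1. CDH5, PECAM1, VIM, KRT18, KRT19, EPCAM, CA9, NDUFA4L2, PAX8, CD3E, ALB, APOA2, TBL1XR1, RNF145, AGPAT4 and EMG1 were added after their values were seen. Some genes that the rule names are not reported here. Alternatives were pseudocounts of 0.5 and 5, other filters and scalings, count tests of the recovered reads with DESeq2 1.42.0 and with edgeR 4.0.16 after TMM scaling, library weights, a replicate block and leaving out each library. Scripts were tested on simulated data. Replicates of a group differed by more than sampling noise. Positions, exon lengths and transcript sequences, 3′ UTRs included, came from GENCODE 29, and promoter windows from RefSeq. The table holds no columns of comparisons by the authors.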

Additional observations from a re-analysis of the deposited data

How the results depend on the processing

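No result reversed under any of the 17 alternatives (16 for ABCG1). Counts of members given below include ABCA1, whose rise chose the set, and are descriptions. The count of members past both criteria as higher, 2, became 4 after quantile normalization, 4 by adjusted p alone and 5 on reads scaled by the library total, and 1 to 3 when a library was left out; the count lower stayed at 0 in every alternative and every library left out. In the main fit 10.5% of all tested genes were higher by adjusted p alone, and 3525 passed it in either direction. The number in either direction was 3394 after quantile normalization and 4337 on reads scaled by the library total. Scaling by the library total, an alternative added after seeing the data, moved the median log2 fold change of all tested genes from -0.01 to 0.16. Less that shift ABCA1 stood at 1.02, MYLIP at 0.66, SREBF1 at 0.48, SCD at 0.44 and ACACA at 0.46. The same scaling lowered the count of lower pathway genes from 6 to 2. The counts of pathway genes were 7 to 15 higher and 4 to 7 lower when a library was left out, with 7 without shRNF25 replicate 2. RNF25 kept its call throughout, at -1.34 to -1.02. Single members crossed adjusted p = 0.05 in either direction. SREBF1 passed in 4 alternatives, FASN in 2, NR1H3 and LPCAT3 in 1 each, while SCD was lost in 6, ACACA in 3 and MYLIP in 2. Most of these losses came where a shRNF25 library was left out. In those fits 1634 to 1716 of all tested genes passed adjusted p below 0.05, against 3525 in the main fit. Without shControl replicate 1, 2 or 3 the number was 5598, 2870 and 4054.

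The replicate numbers did not pair the libraries: deviations from the group means correlated at -0.06, -0.09 and 0.05 for equal numbers. With the replicate number as a block, 3084 genes passed adjusted p below 0.05 in place of 3525, the member counts were 2 higher and 0 lower, the pathway counts 14 and 6, RNF25 stayed at -1.27, and SCD had an adjusted p of 0.0556; no library correlated best with the one of its own number. Low reads limit ABCG1, CYP7B1, VLDLR, OLAH and FGB.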
